A study of Mus musculus with 36 samples.

Results

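The genes described here are the subunits, regulators and assembly factors of the proteasome, chosen by name: every gene of the array whose name starts with Psma, Psmb, Psmc, Psmd, Psme, Psmf or Psmg and goes on with a number. The rule found 49 of the 37325 genes on the array, with 94 probes. 48 of them passed the filter on dim probes (5 or more of the 6 arrays of some group had to show the probe well above background) and were tested together with the other genes that passed, 24251 in all. The gene left out was Psmb11, a catalytic subunit of the thymus. Each gene is represented by its brightest probe. By role the 48 genes were 8 subunits of the alpha ring and 7 of the constitutive beta ring of the core particle, 3 tissue-specific catalytic subunits, 4 assembly chaperones of the core, 6 ATPases, 3 other base subunits and 8 lid subunits of the regulatory particle with 3 of its assembly chaperones, 4 activators, 1 inhibitor and Psmc3ip. Psmc3ip matches the name rule but encodes a recombination protein, not a proteasome subunit. No probe carried the name Psme2; the probes named Psme2b also list transcripts of Psme2, so these 2 genes could not be told apart and the value is given as Psme2b.

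The proteasome is the cell's main protease for proteins tagged with ubiquitin. Its barrel-shaped core is built from rings of alpha subunits, which gate the entrance, and rings of beta subunits, some of which carry the cutting sites; a regulatory cap binds ubiquitin chains, removes them and unfolds the substrate with a ring of ATPases. Interferon-inducible beta subunits can replace the constitutive cutting subunits to form the immunoproteasome, whose peptides feed antigen presentation. In liver, protein breakdown during fasting runs through both the proteasome and autophagy.

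RNA came from livers of male C57Bl/6J mice, 36 samples in all, each on 1 single-colour Agilent array; nothing further is given on how far the samples of a group were separate, so p-values measure the spread between these samples. The labels call mice without the triglyceride lipase ATGL in their white fat AAKO, and the control mice CTRL; the promoter that drives the deletion and the age of the mice are not given in the sources used here. There were 6 groups of 6 arrays: CTRL and AAKO mice fed freely, CTRL and AAKO mice fasted for 24 h, and fed CTRL and AAKO mice given 1 dose of CL316243, which activates beta 3 adrenergic receptors, at 3 mg/kg by gavage in 0.5% carboxymethyl cellulose at Zeitgeber time 10 (hours after lights on). Livers of all groups were taken at Zeitgeber time 16, during the dark hours. Experiment 2 of the labels holds the fed groups and experiment 1 the others, so in a comparison with fed mice the condition and the experiment cannot be told apart; a gavage is given for the CL316243 groups only, so there the agonist, the vehicle and the gavage cannot be told apart either. Comparisons of genotypes within a condition lie within 1 experiment.

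A level is the processed signal over the array's 75th percentile of signal, on the log2 scale, so 0 is the brightness of the probe at that percentile. Levels are compared between groups for 1 probe, never between genes. A difference is given in log2 units ± its standard error (SE) from limma, with 6 arrays in each group; p-values are two-sided, come from limma and are adjusted with the Benjamini-Hochberg method over all 24251 genes, and a gene is called where the adjusted p is under 0.05. Between 33128 and 37200 probes of an array were well above background, and its 75th percentile of signal lay between 287.7 and 412.9. All 7 hepatocyte markers listed were above background in every group. Since the deletion is in adipose tissue, liver RNA does not check it. AAKO CL316243 replicate 6 stood apart: the mean level of 4 skeletal muscle markers was 2.17 on it and -4.54 or lower on every other array. Counts of members called with that group are therefore also given without it. Values of single genes and of gene lists with that group include it.

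Promoters in the RefSeq table (250 bases before to 50 after the gene's start, build GRCm38.p6) could be matched for 41 of the 49 genes. They are shown because the transcription factors Nfe2l1 and Nfe2l2, which act on proteasome genes through the antioxidant response element, and interferon factors, which act on immunoproteasome genes, are among the pathway genes measured below. The core of that element, TGACNNNGC, was searched on both strands; it occurred in 6 of the 41 promoters (14.6%) and in 14% of the promoters of all 27025 genes. The 6 matches are given with 10 bases on each side where the table reaches, 5′ to 3′ on the strand that reads the motif, with the motif in capitals.
Psmb5: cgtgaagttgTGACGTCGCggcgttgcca
Psmb6: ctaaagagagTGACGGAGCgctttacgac
Psmc6: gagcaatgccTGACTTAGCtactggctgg
Psmd9: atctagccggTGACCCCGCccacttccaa
Psmd12: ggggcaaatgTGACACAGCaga
Psme4: gctcttctggTGACGCTGCagccgcagcg
They lie at chr14:54618024-54618052 (Psmb5, minus strand), chr11:70525338-70525366 (Psmb6, plus), chr14:45329587-45329615 (Psmc6, minus), chr5:123228149-123228177 (Psmd9, plus), chr11:107479278-107479299 (Psmd12, minus) and chr11:30771758-30771786 (Psme4, minus). The first base of the Psmb6 match is 9 bases before the start of the gene and that of Psmd9 31 bases before it.

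The core of the interferon-stimulated response element, searched on both strands as GAAA, any 2 bases and GAAA again, occurred in 5 of the 41 promoters (12.2%) and in 3.99% of those of all genes. None of the 3 interferon-inducible subunits Psmb8, Psmb9 and Psmb10 held these letters in this window, which says only that the letters are not there.
Psmb3: atggaaagcgGAAAGTGAAAagtcactgtg
Psmd4: aggcgccacaGAAATGGAAAggttggttat
Psmd9: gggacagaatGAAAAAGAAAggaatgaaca
Psme1: agcgggaaggGAAAGCGAAAgcacagctcg
Psmg4: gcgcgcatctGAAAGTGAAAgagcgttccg
These 5 matches lie at chr11:97703261-97703290 (Psmb3, minus strand), chr3:95042675-95042704 (Psmd4, plus), chr5:123228021-123228050 (Psmd9, plus), chr14:55578493-55578522 (Psme1, minus) and chr13:34162969-34162998 (Psmg4, plus). A CCAAT box, searched as CCAAT on both strands, occurred in 15 of the 41 promoters (36.6%) and in 41.1% of those of all genes. For context, the 250 bases before the start of Psmb6, a catalytic subunit that was lower in fasted AAKO livers, and of Psmd4, the member with the largest rise on fasting in CTRL livers, are shown whole, with every match to the 3 motifs in capitals.
Psmb6: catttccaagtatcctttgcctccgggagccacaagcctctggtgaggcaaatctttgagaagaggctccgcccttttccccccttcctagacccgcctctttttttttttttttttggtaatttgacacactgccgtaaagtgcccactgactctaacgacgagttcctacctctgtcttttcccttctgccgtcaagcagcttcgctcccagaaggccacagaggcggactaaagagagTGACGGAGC
Psmd4: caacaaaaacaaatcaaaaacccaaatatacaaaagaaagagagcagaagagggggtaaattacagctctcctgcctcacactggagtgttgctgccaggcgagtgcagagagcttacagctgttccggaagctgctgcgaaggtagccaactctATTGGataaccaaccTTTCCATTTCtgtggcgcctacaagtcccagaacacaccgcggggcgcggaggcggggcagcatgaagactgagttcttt
They are chr11:70525107-70525356 on the plus strand and chr3:95042615-95042864 on the minus strand. No match overlaps a match to another of the 3 motifs in any sequence printed.

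In fed mice no proteasome gene passed the test between genotypes. None of the 48 was called by limma, in either direction, against 0.0783% of all genes tested; 2 members had an unadjusted p under 0.05, as had 1644 of all genes. The median difference between AAKO and CTRL was -0.01 over the members and 0.00 over all genes, and the members lay between -0.24 (Psmf1) and 0.29 (Psme3). Psmf1, which encodes the inhibitor PI31, spanned 0.83 to 0.96 (median 0.89) in CTRL fed livers and 0.53 to 0.75 (median 0.66) in AAKO fed livers. These groups did not overlap, but the difference of -0.24 ± 0.08 had an adjusted p of 0.381 and was not called.

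After the 24 h fast most constitutive subunits of the core and the cap were lower in AAKO than in CTRL livers: 7 of 8 alpha, 7 of 7 beta, 6 of 6 ATPase, 3 of 3 other base and 6 of 8 lid members, and 1 of 3 tissue-specific catalytic subunits. In all, 39 of the 48 members were lower and 1, Psme3, was higher; of all genes tested 28% were called lower and 21.3% higher. The median difference was -0.36 over the members and -0.04 over all genes. The groups did not overlap for 30 of the 48 members, against 21.3% of all genes. The mean level over the members lay between 3.39 and 3.60 on the 6 AAKO fasted arrays and between 3.79 and 3.97 on the other 30. In bulk liver RNA, fewer cells of a type and less RNA per cell cannot be told apart. Of 5 neutrophil markers 4 were higher in AAKO than in CTRL fasted livers; their mean level ran from -0.80 to 1.77 on the AAKO arrays and from -4.18 to 1.37 on the CTRL arrays, all 5 were above background in both groups, and their part in the result was not tested. Of 7 hepatocyte markers 2 were higher and 4 lower, and their mean level ran from 8.51 to 8.71 on the CTRL and from 8.60 to 8.71 on the AAKO arrays. Of the other lists, 2 of 4 T cell and 2 of 4 cholangiocyte markers tested were lower, 2 of 5 endothelial and 2 of 5 stellate cell markers higher, 1 of 4 adipocyte markers higher and 1 lower, and 1 of 2 acinar markers lower; the part of these lists in the result was not tested either. No marker of Kupffer cells (7 tested), B cells (4), leukocytes in general (4) or skeletal muscle (2) was called by limma between fasted genotypes, and the leukocyte mean ran from 0.08 to 0.92 in CTRL and from 0.14 to 1.11 in AAKO livers. Within wash batch 1 alone 34 members were called lower and 1 higher, and within wash batch 2 alone 30 lower and 2 higher. Of the 40 calls 28 were made under each of the 12 alternative settings, and 37 whichever single array was left out.

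**Figure D1:**
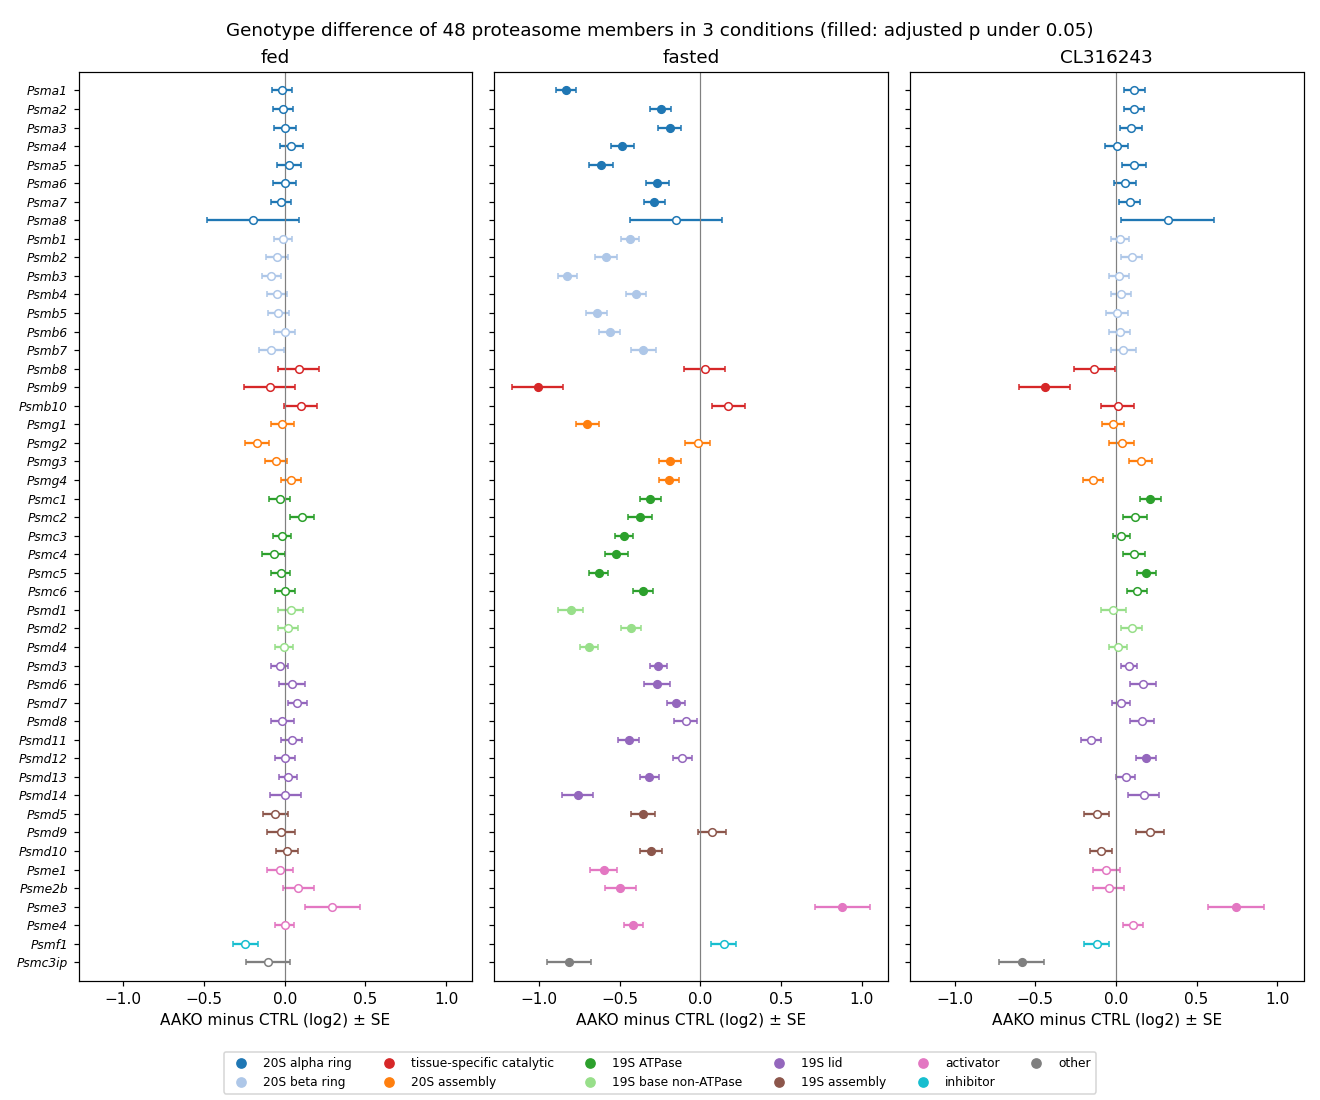
Difference between AAKO and CTRL (log2, x axis, ± SE, 6 arrays per group) of the 48 members, ordered and coloured by role, in fed, fasted and CL316243 mice; filled points have a limma adjusted p under 0.05. In the fasted panel 39 filled points lie left of 0 and 1, Psme3, lies right of it, while the fed panel holds no filled point.

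In the alpha ring, whose subunits frame and gate the entrance, 7 of 8 members were lower in AAKO fasted livers, with a median over the ring of -0.28 and a range from -0.83 to -0.15; the one not called was Psma8, the subunit of the testis form (-0.15 ± 0.29). Psma1 showed the largest difference of the ring. Its level was 4.36 to 4.64 (median 4.55) in CTRL fed, 4.36 to 4.68 (median 4.53) in AAKO fed and 4.39 to 4.70 (median 4.42) in CTRL fasted livers. It was 3.55 to 3.67 (median 3.66) in AAKO fasted, 4.49 to 4.70 (median 4.62) in CTRL CL316243 and 4.54 to 4.83 (median 4.73) in AAKO CL316243 livers. The 6 AAKO fasted arrays were thus the lowest 6 of the series for this gene, with a gap to all others, and the difference between fasted genotypes was -0.83 ± 0.06 (adjusted p = 3.52e-12), or 1.78-fold lower.

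In the constitutive beta ring all 7 members were lower in AAKO fasted livers, with a median of -0.56 and a range from -0.82 to -0.35. Psmb3, a structural subunit, spanned 5.58 to 5.96 (median 5.81) in CTRL fasted and 4.70 to 5.12 (median 5.04) in AAKO fasted livers, a difference of -0.82 ± 0.06 (adjusted p = 1.62e-12). Of the catalytic subunits, Psmb5 carries the chymotrypsin-like site; its level was 4.26 to 4.65 (median 4.51) in CTRL and 3.71 to 4.00 (median 3.88) in AAKO fasted livers, and 4.30 to 4.63 (median 4.51) and 4.31 to 4.53 (median 4.49) in the fed groups. The AAKO fasted arrays lay below every other array for this gene, and the difference from CTRL fasted was -0.64 ± 0.07 (adjusted p = 1.89e-09). Psmb6, with the caspase-like site, spanned 6.02 to 6.34 (median 6.14) in CTRL and 5.38 to 5.78 (median 5.62) in AAKO fasted livers, without overlap, and differed by -0.56 ± 0.07 (adjusted p = 1.58e-08). Psmb7, with the trypsin-like site, spanned 3.79 to 4.01 (median 3.90) and 3.37 to 3.76 (median 3.57) and differed by -0.35 ± 0.08 (adjusted p = 0.000328); within wash batch 2 alone Psmb7 was not called (adjusted p = 0.144).

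Of the tissue-specific catalytic subunits 1 of 3 passed the test between fasted genotypes. Of Psmb8, Psmb9 and Psmb10, which replace Psmb5, Psmb6 and Psmb7 in the immunoproteasome, Psmb9 was lower in AAKO fasted livers. Its level spanned 0.84 to 2.27 (median 1.76) in CTRL fasted and 0.45 to 1.14 (median 0.50) in AAKO fasted livers, so that the lowest CTRL array lay inside the AAKO range, and the difference of -1.01 ± 0.16 (adjusted p = 2.98e-06) was the lowest among the members. Within wash batch 2 alone the call was lost (adjusted p = 0.0594). Psmb8 spanned 1.14 to 2.09 (median 1.48) in CTRL and 1.32 to 1.96 (median 1.48) in AAKO fasted livers and differed by 0.03 ± 0.13 (adjusted p = 0.879). For Psmb10 the ranges were 3.03 to 3.79 (median 3.24) and 3.26 to 3.81 (median 3.43), a difference of 0.17 ± 0.10 (adjusted p = 0.163); neither of these was called.

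**Figure D2:**
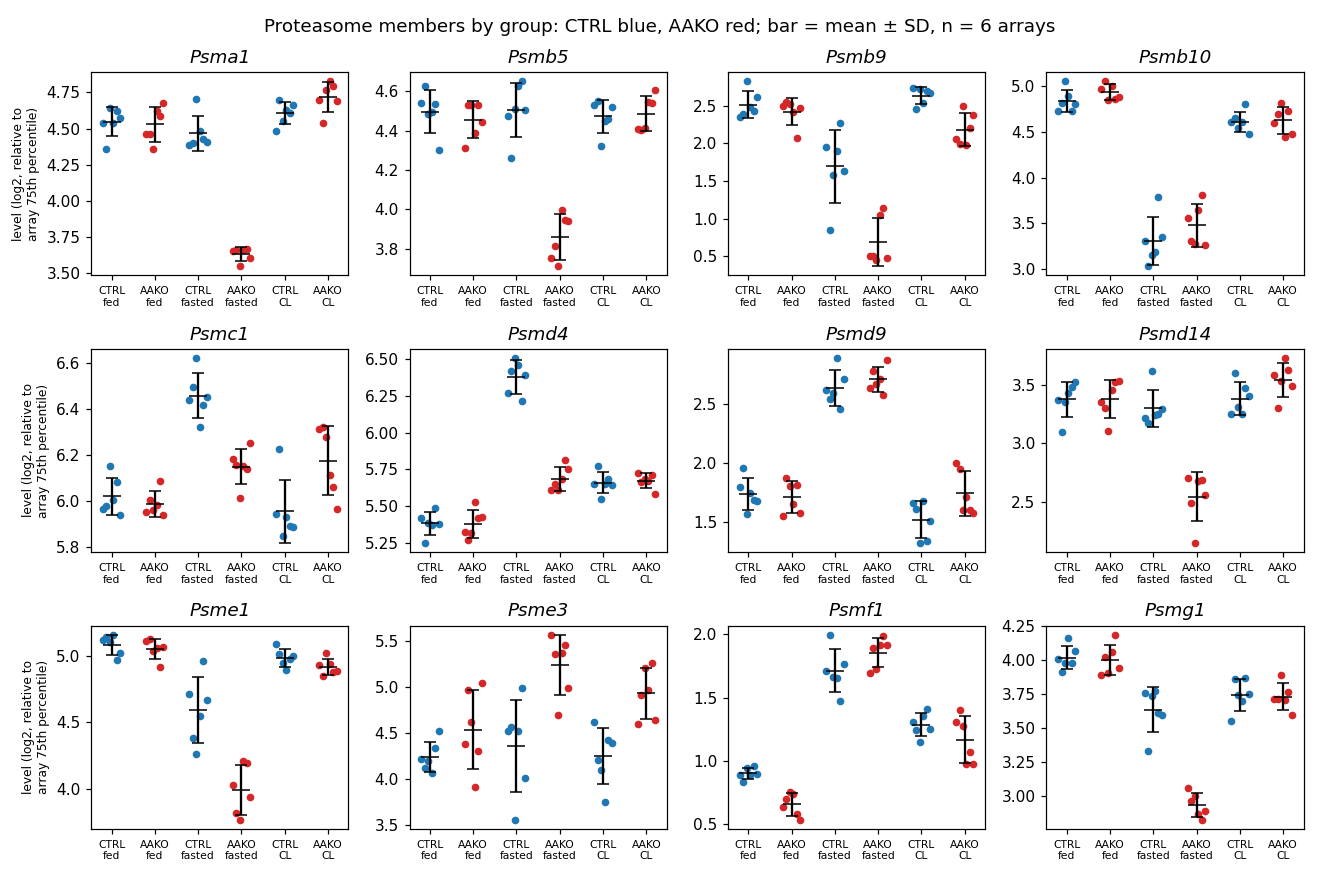
Level (log2 relative to the array's 75th percentile, y axis) of 12 members on each of the 36 arrays by group, CTRL in blue and AAKO in red; bars are the mean ± SD of 6 arrays. The 6 AAKO fasted arrays are the lowest 6 for Psma1, Psmb5 and Psmg1, Psmd4 is highest in the 6 CTRL fasted arrays, and Psmd9 and Psmf1 are high in both fasted groups.

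In the cap, all 6 ATPases, which unfold substrates and open the core, were lower in AAKO fasted livers, with differences from -0.63 to -0.31 and a median of -0.42. All 3 non-ATPase members of the base were lower too. Psmd1, a scaffold of the base, spanned 4.55 to 4.96 (median 4.69) in CTRL and 3.73 to 3.98 (median 3.94) in AAKO fasted livers and differed by -0.80 ± 0.08 (adjusted p = 5.42e-10). Psmd4 is an intrinsic ubiquitin receptor. Its level was 5.25 to 5.49 (median 5.39) in CTRL fed, 5.27 to 5.53 (median 5.37) in AAKO fed, 6.22 to 6.51 (median 6.40) in CTRL fasted and 5.61 to 5.81 (median 5.67) in AAKO fasted livers. The CTRL fasted arrays were all above those of every other group, and the genotypes differed by -0.69 ± 0.06 (adjusted p = 1.55e-11) after the fast. Psmd2, the scaffold that docks ubiquitin-binding shuttle proteins, spanned 4.48 to 4.78 (median 4.57) in CTRL and 4.05 to 4.33 (median 4.18) in AAKO fasted livers, without overlap, with a difference of -0.43 ± 0.06 (adjusted p = 9.24e-07).

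In the lid 6 of 8 members were lower in AAKO fasted livers, with a median of -0.27 and a range from -0.76 to -0.09. Psmd14 is the deubiquitinase that removes the ubiquitin chain as the substrate enters. It spanned 3.18 to 3.62 (median 3.25) in CTRL fasted and 2.14 to 2.70 (median 2.62) in AAKO fasted livers and 3.10 to 3.52 (median 3.40) and 3.11 to 3.53 (median 3.41) in the fed groups. The AAKO fasted arrays were lower than all others, and the difference from CTRL fasted was -0.76 ± 0.10 (adjusted p = 8.89e-08). The lid subunits Psmd3 (-0.26 ± 0.05) and Psmd11 (-0.44 ± 0.06) were called lower, and Psmd8 (-0.09 ± 0.07) and Psmd12 (-0.11 ± 0.06) were not called.

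Among the chaperones that build the core, Psmg1, which pairs with Psmg2 to assemble the alpha ring, had the largest difference. It spanned 3.33 to 3.78 (median 3.67) in CTRL fasted and 2.83 to 3.06 (median 2.93) in AAKO fasted livers, without overlap, and differed by -0.70 ± 0.07 (adjusted p = 1.26e-09). Its partner Psmg2 spanned 1.70 to 2.05 (median 1.86) and 1.72 to 2.02 (median 1.82) and was not called (-0.02 ± 0.08, adjusted p = 0.874). Psmg3 (-0.19 ± 0.07, adjusted p = 0.0254) and Psmg4 (-0.19 ± 0.06, adjusted p = 0.00983), which pair with each other, were called lower by small amounts; Psmg3 was not called without CTRL fasted replicate 3, 4 or 6. Of the chaperones of the cap, Psmd5 spanned 0.92 to 1.14 (median 1.03) in CTRL and 0.53 to 1.04 (median 0.58) in AAKO fasted livers (-0.36 ± 0.08, adjusted p = 0.000246). Psmd10, known as gankyrin, spanned 1.51 to 1.75 (median 1.61) and 1.22 to 1.39 (median 1.32) (-0.31 ± 0.07, adjusted p = 0.000408). Psmd9 spanned 2.46 to 2.89 (median 2.60) and 2.57 to 2.87 (median 2.69) and was not called (0.07 ± 0.09, adjusted p = 0.509).

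The activators cap the core in place of the regulatory particle. The interferon-inducible activator subunit Psme1 spanned 4.26 to 4.96 (median 4.61) in CTRL and 3.77 to 4.21 (median 3.98) in AAKO fasted livers, without overlap, and differed by -0.60 ± 0.08 (adjusted p = 3.54e-07). Its partner, measured as Psme2b, spanned 4.73 to 5.33 (median 5.02) and 4.19 to 4.85 (median 4.55), with some overlap, and differed by -0.50 ± 0.10 (adjusted p = 6.64e-05). Psme4, which encodes the nuclear activator PA200, spanned 4.49 to 4.63 (median 4.52) and 3.88 to 4.23 (median 4.15) and differed by -0.42 ± 0.06 (adjusted p = 6.59e-07). Psme3, which encodes the nuclear activator PA28 gamma, ran the other way: 3.56 to 4.99 (median 4.52) in CTRL and 4.70 to 5.57 (median 5.36) in AAKO fasted livers, overlapping, with a difference of 0.88 ± 0.17 (adjusted p = 7.46e-05). The inhibitor Psmf1 spanned 1.48 to 2.00 (median 1.68) and 1.69 to 1.99 (median 1.90) after the fast and was not called (0.14 ± 0.08, adjusted p = 0.125). Psmc3ip, the gene outside the proteasome, was lower as well (-0.81 ± 0.14, adjusted p = 8.5e-06).

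Other probes of the same genes mostly gave the same direction. Of the 88 probes of members above the filter, 66 were lower and 4 higher in AAKO fasted livers at an unadjusted p under 0.05, a threshold that 13237 of the 24251 genes passed in either direction, and in 25 of the 28 members with more than 1 such probe all probes had 1 sign. For Psme3 the brightest probe gave 0.88 ± 0.17 and the other probe 0.02 ± 0.09, so the higher Psme3 rests on 1 probe. Per the file headers' build (mm9), the brightest probe lies at chr11:101184289-101184348 and the other spans chr11:101178390-101178649. For Psmd4 probes 1 and 2 gave -0.69 ± 0.06 and -0.77 ± 0.09, and the dim probe 3 0.42 ± 0.17. For Psme4 the 4 probes gave -0.42 ± 0.06, -0.49 ± 0.09, -0.02 ± 0.16 and 0.30 ± 0.12, and the mean of its probes was not called (adjusted p = 0.0783).

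**Figure D3:**
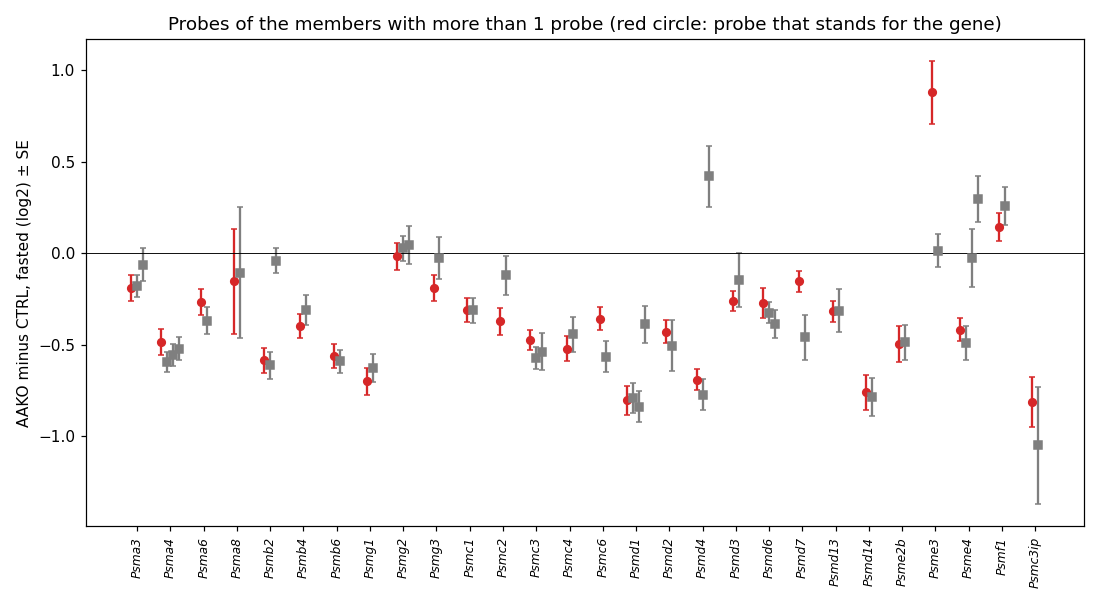
Difference between AAKO and CTRL fasted livers (log2, y axis, ± SE) for every probe above the filter of the 28 members with more than 1 such probe; red circles are the brightest probe of a gene, grey squares the others. Most probes of a gene lie together below 0, and Psmd4, Psme3 and Psme4 have probes that stand apart.

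For most members the genotype difference itself was lower after the fast than in fed mice. In the test of that difference (AAKO minus CTRL fasted, minus AAKO minus CTRL fed) 36 members were lower and 1 higher, against 19.4% and 14.5% of all genes, with a member median of -0.35 and an all-gene median of -0.06. The lowest were Psmb9 (-0.92 ± 0.22, adjusted p = 0.00166), Psmd1 (-0.84 ± 0.11, adjusted p = 6.19e-07) and Psma1 (-0.82 ± 0.09, adjusted p = 3.42e-08), and the member called higher was Psmf1 (0.39 ± 0.11, adjusted p = 0.00595). An effect of experiment that is alike in both genotypes cancels in this test. Within wash batch 1 alone 24 members were called and within wash batch 2 alone 12, all lower. Of the 37 calls only 12 were made under each of the 12 alternative settings. Against the genotype difference after CL316243, that after the fast was lower for 35 members and higher for none, against 19.6% and 12.7% of all genes; the median was -0.45 over the members and -0.09 over all genes. Here the lowest were Psma1 (-0.95 ± 0.09, adjusted p = 5.28e-09), Psmd14 (-0.93 ± 0.14, adjusted p = 4.24e-06) and Psmb3 (-0.84 ± 0.08, adjusted p = 1.55e-08). Without AAKO CL316243 replicate 6, 35 members were again called, all lower. Of the 35 calls made with all arrays, 15 were made under each of the 12 alternative settings. Every comparison of this paragraph shares the fasted arrays with the comparison of fasted genotypes.

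In CTRL livers some members of the cap and of the alpha ring were higher and the immunoproteasome lower after the fast. 15 members rose and 12 fell between fed and fasted CTRL mice, against 20.9% and 22.4% of all genes, with medians of 0.02 over the members and -0.02 over all genes. Psmd4 rose most, by 0.99 ± 0.06 (adjusted p = 1.09e-14), or 1.99-fold. Psmd9, an assembly chaperone, spanned 1.56 to 1.95 (median 1.71) in CTRL fed and 2.46 to 2.89 (median 2.60) in CTRL fasted livers, without overlap, and rose by 0.90 ± 0.09 (adjusted p = 6.99e-10). Psmf1 spanned 0.83 to 0.96 (median 0.89) fed and 1.48 to 2.00 (median 1.68) fasted, also without overlap, and rose by 0.81 ± 0.08 (adjusted p = 5.14e-10). By role, 4 of 6 ATPases, 2 of 3 other base subunits and 4 of 8 lid subunits rose and none of these fell. The core was split. In the alpha ring 3 of 8 members rose and none fell, with changes from -0.32 to 0.56 and a median of -0.02. Of the constitutive beta subunits 3 of 7 fell and none rose. The lid subunits Psmd11 (0.68 ± 0.06, adjusted p = 3.44e-10), Psmd3 (0.53 ± 0.05, adjusted p = 7.36e-10) and Psmd12 (0.40 ± 0.06, adjusted p = 2.96e-06) were among those that rose. Under quantile normalization 20 members rose and 8 fell, and 19 rose and 8 fell in the authors' deposited table.

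All 3 immunoproteasome subunits fell on fasting in CTRL livers. Psmb10 fell furthest: its level was 4.73 to 5.05 (median 4.81) in CTRL fed and 3.03 to 3.79 (median 3.24) in CTRL fasted livers, without overlap, a change of -1.54 ± 0.10 (adjusted p = 2.44e-13), or 2.91-fold. Psmb8 was 2.32 to 2.66 (median 2.44) fed and 1.14 to 2.09 (median 1.48) fasted, a change of -0.91 ± 0.13 (adjusted p = 5.4e-07). Psmb9 was 2.35 to 2.83 (median 2.46) fed and 0.84 to 2.27 (median 1.76) fasted, a change of -0.82 ± 0.16 (adjusted p = 7.27e-05). The interferon-inducible activator fell too, with changes of -0.49 ± 0.08 (adjusted p = 9.7e-06) for Psme1 and -0.84 ± 0.10 (adjusted p = 1.66e-08) for Psme2b. Of 7 Kupffer cell markers, the macrophages of the liver, 3 fell on fasting in CTRL livers, beside 22.4% of all genes. Their mean level there ran from 0.86 to 2.19 fed and from 0.28 to 2.04 fasted. In AAKO livers 4 fell on fasting, beside 35.7% of all genes. After CL316243, against fed mice, 5 were lower in CTRL and 6 in AAKO livers, beside 12.8% and 15.7% of all genes. Of Psmb8, Psmb9 and Psmb10 none was called after CL316243 in CTRL livers, and Psmb8 and Psmb10 were called lower in AAKO livers. The part of the Kupffer cell markers in the fall of the immunoproteasome was not tested. Psmg1 (-0.38 ± 0.07, adjusted p = 4.23e-05) and Psmd5 (-0.58 ± 0.08, adjusted p = 2.01e-07) fell on fasting too. Of the constitutive catalytic subunits, Psmb5 did not pass the test (0.01 ± 0.07, adjusted p = 0.934), and Psmb6 (-0.22 ± 0.07, adjusted p = 0.00738) and Psmb7 (-0.22 ± 0.08, adjusted p = 0.0209) fell by small amounts.

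In AAKO livers most members were lower after the fast. 30 members fell and 9 rose, against 35.7% and 27.8% of all genes; the median change was -0.33 over the members and -0.09 over all genes. 26 members fell and 11 rose in the authors' deposited table, with medians of -0.18 over the members and 0.01 over all genes. All 7 constitutive beta subunits fell, with a median of -0.60, and 4 of 8 alpha subunits fell and none rose. Of 6 ATPases 3 fell and 1 rose, of 3 other base subunits 2 fell and 1 rose, and of 8 lid subunits 2 fell and 3 rose. The 3 lowest were Psmb9 (-1.74 ± 0.16, adjusted p = 3.13e-11), Psmb10 (-1.47 ± 0.10, adjusted p = 8.89e-14) and Psme2b (-1.42 ± 0.10, adjusted p = 4.8e-14). Psmb8 (-0.97 ± 0.13, adjusted p = 5.57e-08), Psme1 (-1.06 ± 0.08, adjusted p = 9.37e-13), Psmg1 (-1.07 ± 0.07, adjusted p = 3.07e-14) and Psmd5 (-0.88 ± 0.08, adjusted p = 1.23e-11) also fell. The 3 that rose most were Psmf1 (1.20 ± 0.08, adjusted p = 1.67e-14), Psmd9 (1.00 ± 0.09, adjusted p = 1.28e-11) and Psme3 (0.70 ± 0.17, adjusted p = 0.000643, on its brightest probe). Psmd4 rose by 0.31 ± 0.06 (adjusted p = 1.71e-05), and Psmd14 fell by 0.84 ± 0.10 (adjusted p = 4.67e-09).

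Some members changed by a similar size on fasting in both genotypes. The change on fasting did not pass the test of a difference between genotypes for Psmd9 (0.10 ± 0.12), Psmb8 (-0.06 ± 0.18) and Psmb10 (0.07 ± 0.14), with adjusted p-values of 0.576, 0.84 and 0.741; a p that misses the threshold does not show that the changes were equal. It differed for Psmd4 (-0.69 ± 0.08, adjusted p = 8.33e-08), Psme1 (-0.57 ± 0.12, adjusted p = 0.000274) and Psmg1 (-0.68 ± 0.10, adjusted p = 3.33e-06).

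**Figure D4:**
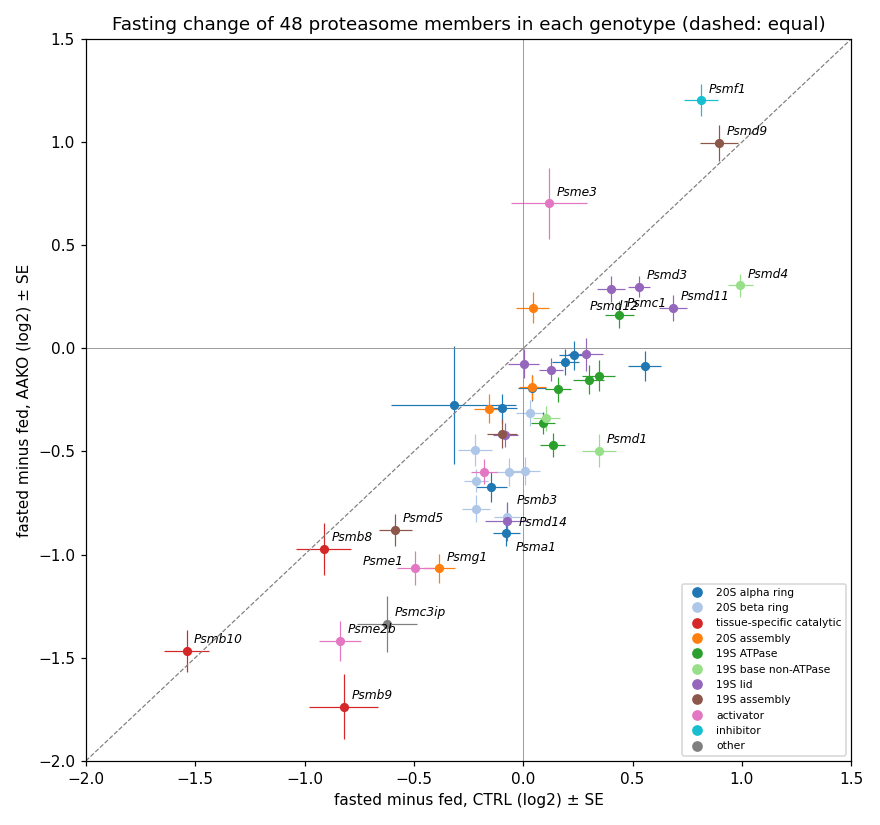
Change from fed to fasted (log2, ± SE, 6 arrays per group) of the 48 members in CTRL livers (x axis) and in AAKO livers (y axis), coloured by role; the dashed line marks equal change. Psmb8, Psmb10 and Psmd9 lie near the line, Psmb9, Psmd4, Psmd1 and Psma1 lie below it, and Psmf1 and Psme3 lie above it.

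After CL316243, 6 members were higher and 5 lower than in fed CTRL livers, and 23.3% of all genes were called in either direction, so the share of members was near the background. Psmd11 (0.40 ± 0.06, adjusted p = 3.05e-05), Psmf1 (0.39 ± 0.08, adjusted p = 0.000437) and Psmd4 (0.28 ± 0.06, adjusted p = 0.000468) rose most, and Psmd5 (-0.35 ± 0.08, adjusted p = 0.00104), Psmd8 (-0.28 ± 0.07, adjusted p = 0.004) and Psmg1 (-0.27 ± 0.07, adjusted p = 0.00475) fell most. Psmf1 spanned 1.15 to 1.41 (median 1.28) in the CTRL CL316243 livers, between its fed and fasted ranges. The immunoproteasome subunits Psmb8 (-0.18 ± 0.13), Psmb9 (0.12 ± 0.16) and Psmb10 (-0.23 ± 0.10) were not called. The split of calls moved with the values used: 9 rose and 4 fell under quantile normalization, and 10 and 4 in the authors' deposited table. Within wash batch 1 alone 5 members were called and within wash batch 2 alone 1. Of the 11 calls 1 was made under each of the 12 alternative settings. Beside the Kupffer cell markers, 4 of 5 endothelial, 4 of 5 stellate cell and 2 of 7 hepatocyte markers were lower than in fed CTRL livers. In AAKO livers 2 of 5 endothelial, 4 of 5 stellate cell and none of the hepatocyte markers were lower. No marker of these lists was higher, and their part in the result was not tested.

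In AAKO livers 17 members were higher and 6 lower after CL316243 than in fed mice, against 15.7% of all genes in each direction, with a median of 0.07 over the members and -0.01 over all genes. 5 of 6 ATPases rose. Psmf1 (0.51 ± 0.08, adjusted p = 5.99e-06), Psme3 (0.45 ± 0.17, adjusted p = 0.0445) and Psmd3 (0.34 ± 0.05, adjusted p = 5.67e-06) rose most; Psmc3ip (-0.50 ± 0.14, adjusted p = 0.0052), Psmd5 (-0.41 ± 0.08, adjusted p = 0.000108) and Psmb8 (-0.40 ± 0.13, adjusted p = 0.0149) fell most. Without AAKO CL316243 replicate 6, 18 rose and 5 fell. Without AAKO fed replicate 3 the count of calls was 15, and it was 4 within wash batch 1 alone and 7 within wash batch 2 alone. Of the 23 calls made with all arrays, only 2 were made under each of the 12 alternative settings.

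Between genotypes after CL316243, 4 members were higher and 2 lower in AAKO livers, against 13.4% and 11.3% of all genes; the medians were 0.05 and 0.03. Psme3 was higher (0.74 ± 0.17, adjusted p = 0.00159): its brightest probe spanned 3.75 to 4.62 (median 4.30) in CTRL and 4.60 to 5.27 (median 4.94) in AAKO livers, and its other probe gave 0.06 ± 0.09. The ATPases Psmc1 (0.21 ± 0.07, adjusted p = 0.0164) and Psmc5 (0.19 ± 0.06, adjusted p = 0.0153; named after its value was seen) and the lid subunit Psmd12 (0.19 ± 0.06, adjusted p = 0.0247) were the others called higher. Psmb9 (-0.44 ± 0.16, adjusted p = 0.0398), with 2.46 to 2.73 (median 2.68) in CTRL and 1.97 to 2.50 (median 2.13) in AAKO livers, and Psmc3ip (-0.58 ± 0.14, adjusted p = 0.00175) were lower. None of the 6 calls was made under all 12 alternative settings, and 1 member was higher and 4 were lower in the authors' deposited table. Without AAKO CL316243 replicate 6, 5 were higher and 2 lower. The test of whether the genotype difference changed from fed to CL316243 called no member by limma, against 10.9% of all genes called in either direction; 7 members had an unadjusted p under 0.05, and without AAKO CL316243 replicate 6 limma called 1.

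Fasting and CL316243, both of experiment 1, were compared within each genotype. In CTRL livers 14 members were higher and 9 lower after the fast than after CL316243, against 19.2% and 17.6% of all genes. Psmd9 (1.11 ± 0.09, adjusted p = 2.15e-11), Psmd4 (0.72 ± 0.06, adjusted p = 2.22e-11) and Psmc1 (0.50 ± 0.07, adjusted p = 3e-07) were highest, and Psmb10 (-1.31 ± 0.10, adjusted p = 2.04e-11), Psmb9 (-0.94 ± 0.16, adjusted p = 1.58e-05) and Psme2b (-0.78 ± 0.10, adjusted p = 1.12e-07) lowest. This comparison lies within 1 experiment but uses the same CTRL fasted arrays as that with fed mice. Its reference is mice given the agonist by gavage, not untreated fed mice. The part of the experiment in the change from fed to fasted mice was not tested. In AAKO livers 2 members were higher, Psmd9 (0.97 ± 0.09, adjusted p = 3.27e-11) and Psmf1 (0.69 ± 0.08, adjusted p = 4.22e-09), and 34 were lower, against 26.2% and 33.8% of all genes. The median was -0.40 over the members and -0.08 over all genes. Psmb9 (-1.51 ± 0.16, adjusted p = 9.74e-10), Psme2b (-1.23 ± 0.10, adjusted p = 1.82e-12) and Psmb10 (-1.15 ± 0.10, adjusted p = 3.15e-11) were lowest. Psmb5 (-0.62 ± 0.07, adjusted p = 1.76e-09) and Psmd14 (-1.01 ± 0.10, adjusted p = 1.41e-10) were lower as well. Without AAKO CL316243 replicate 6, 2 were higher and 35 lower. In the authors' deposited table, where the median of all genes was higher by 0.13 in this comparison (and by 0.11 in that of the genotype differences, fasted against CL316243), 8 members were higher and 32 lower.

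Over the 6 group means, the members did not all follow one pattern. The correlation of a member with the mean of the other members ran from -0.73 (Psme3) to 0.99 (Psmb3), with -0.71 for Psmd9 and -0.66 for Psmf1; 16 of 48 lay above 0.9. These are descriptions over 6 points that share arrays and scaling. The mean over the members was 3.88 in CTRL fed, 3.87 in AAKO fed, 3.88 in CTRL fasted, 3.51 in AAKO fasted, 3.88 in CTRL CL316243 and 3.92 in AAKO CL316243 livers. Outside the members, the named genes whose group means were most alike this mean were Vps8 (r = 0.9984), Fer (r = 0.9983), 9330159H11Rik and Ube4bos1 (r = 0.9978 each), and a probe named only by a position on chromosome 3 (r = 0.9984).

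Genes of the ubiquitin pathway around the proteasome were called in both directions, at shares mostly near those of all genes. Of 34 pathway genes listed, 33 were on the array and tested. Between fasted genotypes 6 were higher and 10 lower in AAKO livers, beside 21.3% and 28% of all genes, with a median of -0.07 against -0.04 over all genes. On fasting 8 rose and 10 fell in CTRL livers, beside 20.9% and 22.4% of all genes, and 10 rose and 15 fell in AAKO livers, beside 27.8% and 35.7%. After CL316243, 7 were higher and 5 lower in AAKO than in CTRL livers, beside 13.4% and 11.3%.

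The transcription factor Nfe2l2, which induces proteasome genes under oxidative stress, had the largest difference of the list. Its level was 2.32 to 2.94 (median 2.72) in CTRL fed, 2.37 to 3.37 (median 2.60) in AAKO fed, 0.74 to 2.83 (median 2.20) in CTRL fasted and -0.89 to 0.82 (median 0.00) in AAKO fasted livers. After CL316243 it was 2.31 to 2.88 (median 2.75) in CTRL and 1.43 to 2.31 (median 1.83) in AAKO livers. It was lower in AAKO fasted livers by 2.12 ± 0.25 (adjusted p = 2.07e-08), with CTRL fasted arrays spread widely and the highest AAKO array above the lowest CTRL array. Nfe2l1, the factor that restores proteasome genes when the protease is blocked, was lower in AAKO livers after the fast (-0.30 ± 0.09, adjusted p = 0.00432) and after CL316243 (-0.59 ± 0.09, adjusted p = 4.47e-06). Pomp, the chaperone that matures the core, was lower (-0.26 ± 0.07, adjusted p = 0.0031) and fell on fasting in CTRL (-0.54 ± 0.07, adjusted p = 2.89e-07) and AAKO livers (-0.82 ± 0.07, adjusted p = 2.06e-11). Uba6, an enzyme that activates ubiquitin, was lower after the fast (-1.01 ± 0.13, adjusted p = 6.4e-08), as were the shuttle protein Rad23b (-0.37 ± 0.08, adjusted p = 0.00045) and the unfolding ATPase Vcp (-0.34 ± 0.06, adjusted p = 5.74e-06).

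Other genes of the list went up. Fbxo32, the ubiquitin ligase atrogin-1, spanned -3.84 to -2.65 (median -3.27) in CTRL fed and -1.98 to -1.21 (median -1.84) in CTRL fasted livers and rose by 1.498 ± 0.274 (adjusted p = 3.72e-05) in CTRL and 1.70 ± 0.27 (adjusted p = 2.41e-06) in AAKO livers. Zfand5, which stimulates the proteasome, spanned 1.42 to 1.64 (median 1.55) in CTRL fed and 2.50 to 3.27 (median 2.91) in CTRL fasted livers; it rose by 1.33 ± 0.09 (adjusted p = 4.07e-13) in CTRL and 1.54 ± 0.09 (adjusted p = 2.47e-15) in AAKO livers. Zfand5 was also higher in AAKO than in CTRL fasted livers (0.44 ± 0.09, adjusted p = 0.000148), as was Akirin2, which brings proteasomes into the nucleus (0.43 ± 0.07, adjusted p = 5e-06).

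Of 10 genes of interferon signalling and antigen presentation, 6 fell and 2 rose on fasting in CTRL livers, beside 22.4% and 20.9% of all genes, and 7 fell and 1 rose in AAKO livers, beside 35.7% and 27.8%. Between fasted genotypes 3 were lower and 1 higher in AAKO livers, near or below the 28% and 21.3% of all genes. The interferon factor Irf1 fell in CTRL livers by 0.88 ± 0.17 (adjusted p = 5.93e-05) and in AAKO livers by 1.30 ± 0.17 (adjusted p = 4.08e-08), beside the fall of Psmb8, Psmb9 and Psmb10. It spanned 2.49 to 3.27 (median 3.10) in CTRL fed and 1.23 to 2.47 (median 2.18) in CTRL fasted livers. Nlrc5, an inducer of class I antigen presentation, rose by 0.67 ± 0.15 (adjusted p = 0.000629) in CTRL and by 1.03 ± 0.15 (adjusted p = 7.24e-07) in AAKO livers.

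**Figure D5:**
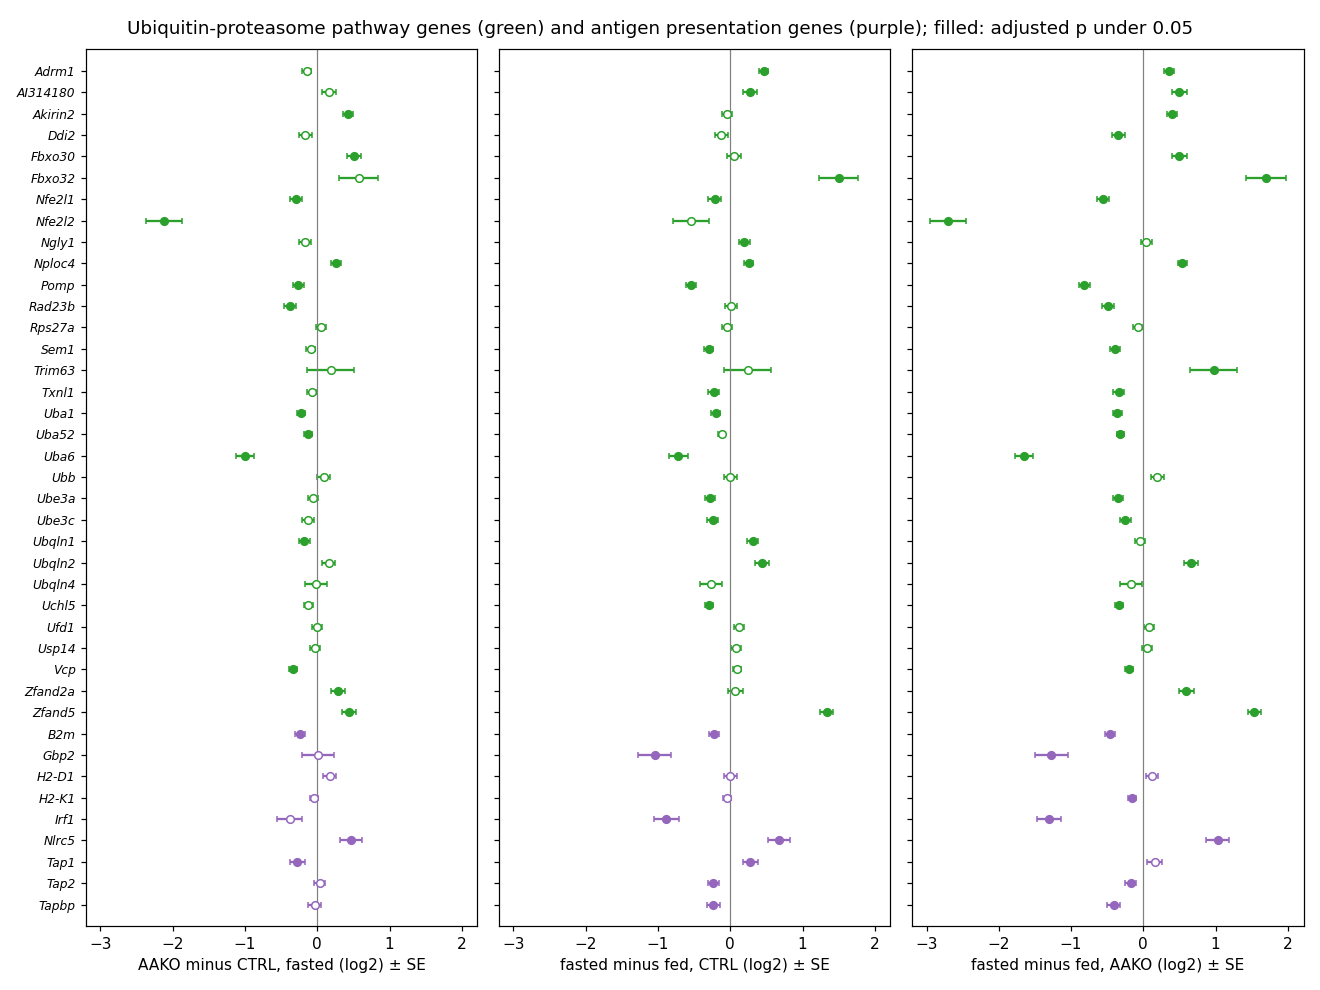
Differences (log2, x axis, ± SE, 6 arrays per group) of 31 ubiquitin-proteasome pathway genes (green) and 9 antigen presentation genes (purple) between fasted genotypes and between fasted and fed mice of each genotype; filled points have a limma adjusted p under 0.05. Nfe2l2 lies furthest left between fasted genotypes, and Fbxo32 and Zfand5 lie furthest right on fasting in CTRL livers.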

How the data were processed

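The authors deposited 1 scanner file per array (36 arrays of design 074809) with intensity values and 0/1 marks of spots above background, saturated or outlying. Per the file headers the intensities come from Feature Extraction 10.10.1.1 of Agilent. They also deposited a table of log2 values whose columns hold identical sorted values within each group. Column medians differ between groups, from 6.878 (AAKO CL316243) to 7.014 (AAKO fasted). These deposited values are thus quantile-normalized within each group, not over all 36 arrays. Per the submitters' processing notes limma was used. Probe names are those of the scanner files; 32994 of 56605 probes were named through RefSeq.

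Control spots and outlier spots (2701, or 0.127% of the rest) were left out, spots of a probe averaged, and log2 signals scaled to the 75th percentile. limma 3.58.1 in R 4.3.3 fitted 6 group means and wash batch over all 24251 genes, with 12 contrasts; the fit was tested on simulated data. Named genes are the catalytic, tissue-specific, activator, inhibitor, assembly, ubiquitin-receptor and deubiquitinase members, the 3 highest and 3 lowest called members of each contrast, and genes named as chosen later. The members, lists and tests were chosen with earlier results of these data known. Alternatives were background correction, scaling, the authors' table, filter, batch, slide, replicate block, arrays in the fit, probe choice and leaving out each array. Some genes of the pathway and antigen presentation lists count in their totals but are not reported here.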

Additional observations from a re-analysis of the deposited data

Results flagged for a closer look

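In 15 of 180 combinations of 30 named members and 6 groups, 1 array stood far from the other 5; chance flags about 1 in 20. CTRL fasted replicate 3 was high for Psma1 (4.70, nearest array 4.48), Psmd14 (3.62, nearest 3.30) and Psme4 (4.63, nearest 4.54). CTRL fed replicate 2 was low for Psmd1 (4.13, nearest 4.34), Psmd12 (4.80, nearest 4.98), Psmg2 (1.46, nearest 1.81) and Psmg4 (0.99, nearest 1.103). AAKO fasted replicate 3 was low for Psmd1 (3.73, nearest 3.92) and high for Psmd5 (1.04, nearest 0.66). AAKO fed replicate 5 was low for Psmb9 (2.08, nearest 2.42), and AAKO fed replicate 6 was high for Psmd2 (4.61, nearest 4.52). CTRL CL316243 replicate 2 was high for Psmc1 (6.22, nearest 5.94), and CTRL CL316243 replicate 1 for Psmd11 (2.74, nearest 2.50). AAKO CL316243 replicate 3 was low for Psmd8 (3.49, nearest 3.65), and AAKO CL316243 replicate 6, the array with skeletal muscle transcripts, was low for Psmg4 (0.81, nearest 1.05).

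The genotype difference itself differed between conditions. Between fasted and fed mice it differed for 37 of the 48 members, against 33.9% of all genes in either direction. The largest were Psmb9 (-0.92, adjusted p = 0.00166), Psmd1 (-0.84, adjusted p = 6.19e-07) and Psma1 (-0.82, adjusted p = 3.42e-08) downward and Psmf1 (0.39, adjusted p = 0.00595) upward. Between fasted and CL316243 mice it differed for 35 members, against 32.3% of all genes in either direction. Psma1 (-0.95, adjusted p = 5.28e-09), Psmd14 (-0.93, adjusted p = 4.24e-06) and Psmb3 (-0.84, adjusted p = 1.55e-08) were lowest. Without CTRL fasted replicate 3 these counts of members were 32 and 33.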

How the results depend on the processing

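Of the values of single genes recomputed under the alternatives, 10903 stayed on their side of the threshold. Among these, values called both times kept their direction, and direction was not compared where a value was called neither time. The call was lost for 333 and gained for 101, and 3 values with a call before or after turned direction. Those 3 were Psmg3 between fasted and fed AAKO mice with the mean of its probes (0.085), and Psmc1 (0.17) and Psmd3 (0.14) between fasted and CL316243 AAKO mice in the authors' deposited table. The causes were not tested; each wash batch alone holds 2 to 4 arrays per group.

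Between fasted genotypes the member median was -0.44 within wash batch 1. Between genotypes after CL316243 the count of 6 became 3 with only the groups compared, 0 within batch 1 and 1 within batch 2, and the median 0.12 within batch 2. For fasting in CTRL mice the median was 0.10 under quantile normalization and 0.11 in the authors' table. For fasting in AAKO mice it was -0.24 under quantile normalization, -0.18 in the authors' table, -0.41 within batch 1 and -0.25 within batch 2. For CL316243 in CTRL mice the count was 5 within batch 1 and 1 within batch 2, and the median 0.066 within batch 1. For CL316243 in AAKO mice the count was 4 and 7, and the median 0.13 within batch 2. Between fasting and CL316243 the median in CTRL mice was 0.067 under quantile normalization and 0.071 in the authors' table, and the count 11 within batch 1; the median in AAKO mice was -0.31 under quantile normalization and -0.25 in the authors' table, which also differs in other steps. The difference of genotype differences gave counts of 24 and 12 and medians of -0.46 and -0.27 within batches 1 and 2 for fasting; counts of 2 in the authors' table and 1 with only the groups compared, and medians of -0.0024 and 0.16 within the batches, for CL316243; and, for fasting against CL316243, a median of -0.35 in the authors' table and a count of 23 within batch 2.

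Leaving out each array in turn, the counts of calls ran from 37 to 41 between fasted genotypes, from 15 (without AAKO fed replicate 3) to 23 for CL316243 in AAKO mice and from 0 to 2 (without CTRL CL316243 replicate 2) for the change of the genotype difference from fed to CL316243. Correlations of same-numbered arrays ran from -0.15 to 0.26, and their mean per comparison from -0.016 to 0.083. With 6 pairs per comparison these values cannot decide whether the replicate numbers pair the samples. With the replicate block 40 members were called between fasted genotypes and 6 after CL316243, and no count moved by over 1.5 times. Signal over background limits Psmb11.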
